A study of Rattus norvegicus with 4 samples.

Results

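Vitamin and folate transporters are the plasma membrane carriers that bring folate, thiamine, ascorbate, riboflavin, biotin and pantothenate into cells. They were taken as the genes whose names start with SLC19A, SLC23A, SLC46A or SLC52A, together with SLC5A6, in the study's lists of transporters and pumps, which gave 10 genes of the 32883 gene IDs measured. The 10 genes were SLC19A1, SLC46A1, SLC19A2, SLC19A3, SLC23A1, SLC23A2, SLC23A3, SLC52A2, SLC52A3 and SLC5A6. The lists hold 263 transporters and pumps and include only genes that reached 0.5 TPM in the male choroid plexus, the sorted cells or the kidney, so that every member passes that cut-off in at least 1 of these 3 libraries was fixed by the choice of lists.

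RNA was sequenced from untreated Sprague Dawley rats aged 9 weeks, with 1 library for each of 4 groups. No difference given here is therefore backed by a replicate, and the spread between animals is unknown. The male choroid plexus and the female choroid plexus were whole tissue from the lateral and 4th ventricles, each a pool of 5 rats. The FACS epithelial cells came from digested choroid plexus of 10 male rats and were captured by an antibody against NKCC1, a cotransporter of the epithelium. The kidney proximal tubules were a pool of 5 male rats, obtained by enzyme digestion and collection by hand, and the methods read as taking the kidneys from the same male rats as the male choroid plexus. Levels are in TPM, an abundance that allows for transcript length and is scaled to a fixed total per library, so that it can be compared between genes. Whole tissue and sorted cells are both bulk samples, and in them fewer cells of a type and less RNA per cell cannot be told apart.

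Mammals take most of these vitamins from food, although rats make ascorbate in the liver, and the brain takes several of them from blood through the choroid plexus, the epithelium that secretes the cerebrospinal fluid. Folate enters this epithelium through the folate receptor FOLR1, through the proton-coupled carrier SLC46A1 and through the reduced folate carrier SLC19A1. SLC23A2 carries ascorbate together with sodium and is known for keeping ascorbate high in cerebrospinal fluid, whereas its relative SLC23A1 is known from the brush border of kidney and intestine. SLC19A2 and SLC19A3 carry thiamine, SLC52A2 and SLC52A3 carry riboflavin, and SLC5A6 carries biotin, pantothenate and lipoate with sodium. SLC23A3 belongs to the ascorbate carrier family by sequence.

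The 250 bases before the start site of 4 members are given because members of the same gene family lay at opposite ends of the levels below and differed in the number of CG dinucleotides in this stretch. The sequences are from RefSeq on the rat assembly GRCr8, 5′ to 3′ on the strand of the gene, with every CG dinucleotide in capitals. SLC19A1 is at chr20:11600937-11601186 on the minus strand, SLC19A3 at chr9:91747130-91747379 on the minus strand, SLC23A2 at chr3:139847344-139847593 on the minus strand, and SLC23A1 at chr18:27502486-27502735 on the minus strand.
SLC19A1: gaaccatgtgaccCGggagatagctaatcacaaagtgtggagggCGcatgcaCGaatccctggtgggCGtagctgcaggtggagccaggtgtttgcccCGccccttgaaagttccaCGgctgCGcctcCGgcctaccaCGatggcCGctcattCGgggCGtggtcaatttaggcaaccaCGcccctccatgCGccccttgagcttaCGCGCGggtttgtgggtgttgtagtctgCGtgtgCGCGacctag
SLC19A3: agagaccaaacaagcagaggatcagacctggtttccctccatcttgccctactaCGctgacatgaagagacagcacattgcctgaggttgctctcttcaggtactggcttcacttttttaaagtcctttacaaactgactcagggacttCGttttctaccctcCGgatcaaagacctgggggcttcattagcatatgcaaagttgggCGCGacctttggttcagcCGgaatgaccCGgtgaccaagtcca
SLC23A2: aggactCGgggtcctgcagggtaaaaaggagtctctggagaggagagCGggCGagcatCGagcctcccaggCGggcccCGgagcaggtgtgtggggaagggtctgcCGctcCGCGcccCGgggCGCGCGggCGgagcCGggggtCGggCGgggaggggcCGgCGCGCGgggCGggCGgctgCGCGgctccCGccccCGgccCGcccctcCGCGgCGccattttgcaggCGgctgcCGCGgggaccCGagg
SLC23A1: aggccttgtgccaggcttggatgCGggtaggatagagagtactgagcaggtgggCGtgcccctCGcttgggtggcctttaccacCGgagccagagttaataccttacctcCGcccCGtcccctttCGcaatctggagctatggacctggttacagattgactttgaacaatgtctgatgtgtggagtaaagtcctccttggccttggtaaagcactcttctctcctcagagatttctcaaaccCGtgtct

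Entries for 8 of the 10 members were found among the promoters, and SLC52A2 and SLC52A3 were without an entry. SLC23A2 held 35 CG dinucleotides in the 250 bases, SLC19A2 held 25, SLC5A6 held 21, SLC19A1 held 20 and SLC46A1 held 12. SLC23A1 held 8, SLC19A3 held 7 and SLC23A3 held 3. Among all 33469 rat promoters of this length the median was 5, with quartiles of 2 and 15. The 4 members with the highest TPM in the male choroid plexus therefore lay above the upper quartile, and the 3 members below the cut-off in every choroid plexus library held fewer CG dinucleotides than the 5 others. This sets the members against all promoters and not against those of transcribed genes. Whether the number of CG dinucleotides goes with the level was not tested.

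**Figure D1:**
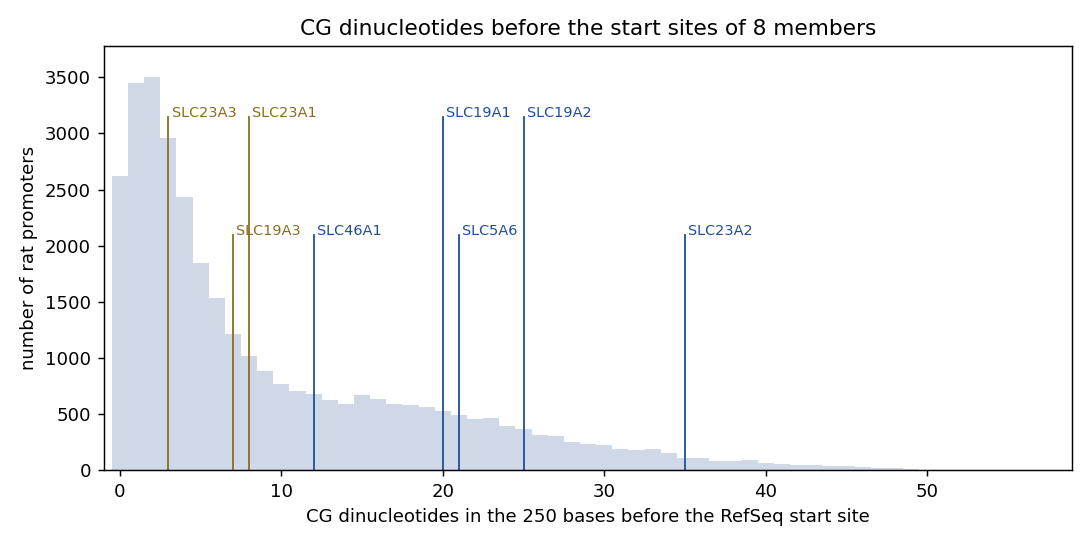
CG dinucleotides in the 250 bases before the RefSeq start site (x axis) against the number of rat promoters (y axis, 33469 in all). Vertical lines mark 8 members, in blue those at or above 0.5 TPM in the choroid plexus and in brown those below it there, and line heights have no meaning; SLC23A2 lies at 35 and SLC23A3 at 3.

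Short motifs were looked for on both strands of the same 250 bases. GGGCGG, the GC box read by the SP1 family, which itself contains a CG, was in 6 of 8 members and in 30.5% of all promoters, and the members without it were SLC19A3 and SLC23A3. GTTAAT, the core letters of the site of the HNF1 factors of kidney and liver epithelium, was in SLC23A1 and SLC23A3, 2 of 8 members, and in 6.45% of all promoters. CACGTG, an E-box, was in SLC5A6 alone among the 8 and in 5.59% of all promoters. A match of letters is a description of the sequence and says nothing of a factor being there.

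The expected counts, the reads assigned to genes, summed to between 23873318 and 28324976 per library. The 13 mitochondrially encoded genes took 4.32 to 5.34% of them in the choroid plexus libraries and 70.7% in the proximal tubules, which left 7352952 counts there for all other genes. The epithelial markers fitted the choroid plexus labels, with 10 of 10 reaching 0.5 TPM in all 3 choroid plexus libraries, led by transthyretin (TTR) with 238565 TPM in the male tissue. In the FACS library TTR was 389655 TPM, and of the 10 epithelial markers it was the only one above its value in the male tissue. All 4 immune markers were higher in the FACS library than in the male tissue, with a sum of 5224 TPM against 933 TPM, 2 of the 3 endothelial markers were higher, with a sum of 219.7 against 145.6 TPM, and 3 of the 6 stromal and mural markers were higher, with a sum of 1789 against 1273 TPM that was carried mainly by MGP, at 1064 against 544.3 TPM. All 3 red blood cell markers were lower, with a sum of 1568 against 8109 TPM. These directions are those of TPM as deposited. Relative to the median log2 ratio of all genes, 4 of the 10 epithelial markers lay above it in the FACS library. So did all 4 immune, all 3 endothelial, 4 of the 6 stromal and mural and 0 of the 3 red blood cell markers. The 6 proximal tubule markers all reached 0.5 TPM in the proximal tubule library, led by SLC7A13 with 2055 TPM, and 6 of the 10 choroid plexus markers were listed at 0 there.

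The proximal tubule library also differed in how its counts were spread. It had counts for 6274 genes, of which 162 had 1 to 10 counts and 1415 had 41 to 80, whereas the male choroid plexus had counts for 16720 genes, with 2704 and 988 in those ranges. The lower quartile of its counts above 0 was 54 and their 5th percentile 23, against 37 and 2 in the male library. The members' counts in the proximal tubules, where above 0, ran from 40 to 122 and lay in that crowded range, so counting intervals there may be too narrow, and a 0 is written below only as listed at 0. What produced this spread was not tested.

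At 0.5 TPM, 7 of the 10 members were transcribed in each of the 3 choroid plexus libraries and 5 in the proximal tubules. Only the female library stood outside the choice of lists, and there 40.8% of all gene IDs reached the cut-off. Every member had already reached it in another library, so that share is no measure for the 7 of 10. The 7 genes were SLC5A6, SLC19A1, SLC23A2, SLC19A2, SLC46A1, SLC52A2 and SLC52A3 in all 3 libraries. Of all genes at the cut-off in the male tissue, 96.6% were also at the cut-off in the female tissue. The members summed to 458.5 TPM in the male, 401.8 TPM in the female and 351.9 TPM in the FACS library, which was 2.79%, 2.72% and 2.76% of the TPM of the listed transporters and pumps. In the proximal tubules they summed to 6.15 TPM, or 0.157%. With mitochondrially encoded genes removed the sums were 22.1 TPM in the proximal tubules and 500.3 TPM in the male choroid plexus.

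**Figure D2:**
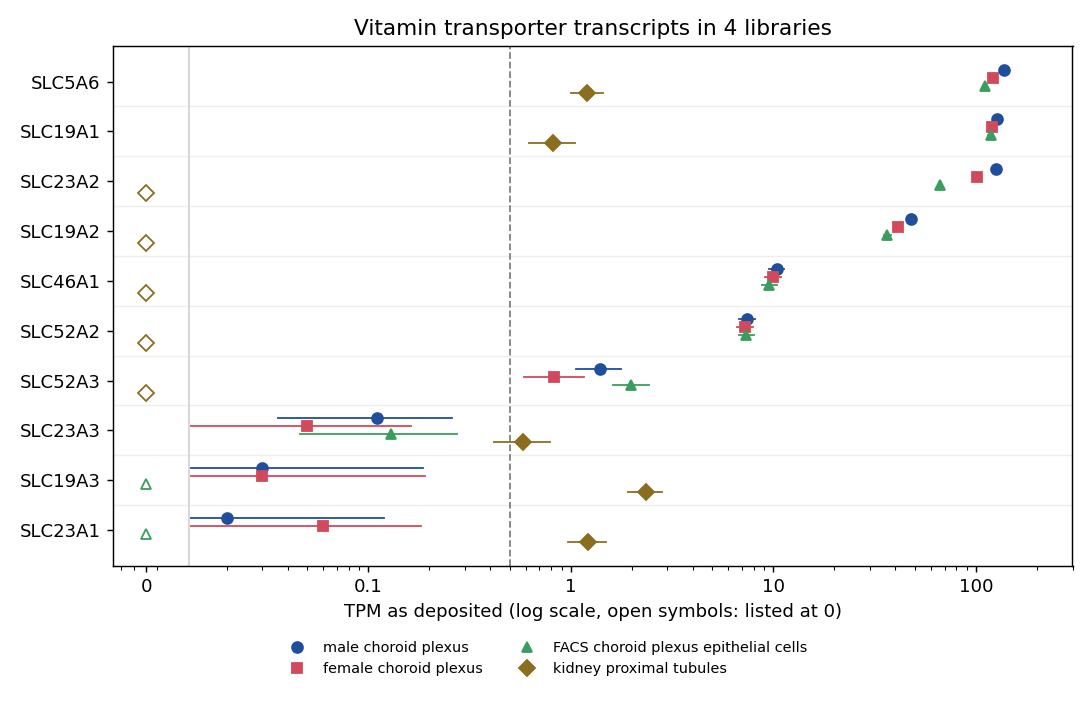
TPM as deposited (x axis, log scale) of the 10 members (y axis, ordered by the male choroid plexus) in the 4 libraries, with horizontal lines for 95% counting intervals, cut where they would run into the zone for 0, open symbols for genes listed at 0 and a dashed line at the cut-off of 0.5 TPM. SLC5A6, SLC19A1 and SLC23A2 lead in the 3 choroid plexus libraries, while SLC19A3, SLC23A1 and SLC23A3 reach the cut-off in the proximal tubules alone.

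The folate carrier SLC19A1 (ENSRNOG00000001232) had 127.5 TPM in the male choroid plexus from 6338 counts, 119.7 TPM in the female from 5819 counts, 118.2 TPM in the FACS cells from 6162 counts and 0.82 TPM in the proximal tubules from 61 counts. It stood at place 26, 26 and 22 of the 263 transporters and pumps in the 3 choroid plexus libraries and at place 72 in the proximal tubules. The 3 choroid plexus values lay close together, and all were far above the tubules. The proton-coupled carrier SLC46A1 (ENSRNOG00000010291) had 10.4 TPM in male tissue, 9.97 TPM in the female and 9.57 TPM in the FACS cells, from 511, 481 and 496 counts, and was listed at 0 in the proximal tubules. SLC19A1 was thus 12.3 times SLC46A1 in the male (95% counting interval 11.2 to 13.5), 12.0 times in the female (10.9 to 13.2) and 12.3 times in the FACS cells (11.3 to 13.6), a ratio that did not differ between the 3 libraries beyond counting error. The folate receptor FOLR1, which takes folate up by endocytosis, had 2058 TPM in the male, 2093 TPM in the female and 2725 TPM in the FACS cells. FOLR1 is a receptor and not among the 263 transporters and pumps. FOLR1 was 16.1 times SLC19A1 in the male (15.7 to 16.6), 17.5 times in the female (17.0 to 18.0) and 23.1 times in the FACS cells (22.4 to 23.7). The distance between receptor and carrier was therefore wider in the FACS library than in either whole tissue, beyond counting error. FOLR1 is the shorter, with an effective length of 639 bases in the male library against 2029 for SLC19A1. As given below, the median FACS ratio of all genes fell with transcript length, and the part of length in this distance was not tested.

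Of the thiamine carriers, SLC19A2 (ENSRNOG00000002839) had 47.8 TPM in the male, 41.5 TPM in the female and 36.6 TPM in the FACS cells, from 3023, 2639 and 2317 counts, and was listed at 0 in the proximal tubules. SLC19A3 (ENSRNOG00000057256) showed the opposite pattern. It had 1 count in the male and 1 in the female choroid plexus, was listed at 0 in the FACS cells, and had 105 counts in the proximal tubules, or 2.34 TPM. The 2 thiamine carriers thus did not share a library in which both reached the cut-off.

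The ascorbate carriers divided in the same way, with the same limit, since SLC23A1 too entered the lists through its tubule value alone. SLC23A2 (ENSRNOG00000021262) had 125.9 TPM in the male choroid plexus, 101.6 TPM in the female and 66.7 TPM in the FACS cells, from 18583, 14731 and 10437 counts, and was listed at 0 in the proximal tubules. SLC23A1 (ENSRNOG00000061695) had 1 count in the male and 3 in the female tissue, was listed at 0 in the FACS cells and had 86 counts, or 1.21 TPM, in the proximal tubules. SLC23A3 (ENSRNOG00000018266) had 5, 2 and 6 counts in the choroid plexus libraries and 40 counts in the proximal tubules. Its 0.58 TPM there, as deposited, lay just above the cut-off, and with mitochondrially encoded genes removed it was 2.08 TPM. No choroid plexus library held more than 6 counts of SLC23A1 or SLC23A3, against 10437 counts or more of SLC23A2.

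The riboflavin carrier SLC52A2 (ENSRNOG00000032561) had 7.45 TPM in the male, 7.28 TPM in the female and 7.36 TPM in the FACS cells, from 491, 471 and 513 counts. Its relative SLC52A3 (ENSRNOG00000005132) had 1.39 TPM in the male, 0.83 TPM in the female and 1.99 TPM in the FACS cells, from 62, 36 and 97 counts. Both were listed at 0 in the proximal tubules. SLC52A2 was 5.36 times SLC52A3 in the male (4.11 to 7.10), 8.77 times in the female (6.24 to 12.7) and 3.70 times in the FACS cells (2.97 to 4.64), with the female and FACS intervals apart. SLC52A3 was the member nearest above the cut-off in the choroid plexus, and no member lay just below it, the next being SLC23A3 at 0.11 TPM in the male, SLC23A1 at 0.06 TPM in the female and SLC23A3 at 0.13 TPM in the FACS cells.

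SLC5A6 (ENSRNOG00000057628), the carrier of biotin and pantothenate, had 137.9 TPM in the male from 9036 counts, 120.9 TPM in the female from 7819 counts, 111.4 TPM in the FACS cells from 7811 counts and 1.20 TPM in the proximal tubules from 122 counts. It was the highest member in the male, at place 25 of the 263 in each choroid plexus library. The order of the leading members was SLC5A6, SLC19A1 and SLC23A2 in the whole tissues and SLC19A1, SLC5A6 and SLC23A2 in the FACS cells. In the male the intervals of SLC19A1 and SLC23A2 overlapped, in the female those of SLC5A6 and SLC19A1, and in all 3 libraries those of the lowest genes SLC23A3, SLC19A3 and SLC23A1. From the fourth to the seventh place the order SLC19A2, SLC46A1, SLC52A2 and SLC52A3 was the same in the 3 libraries, with intervals apart.

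By vitamin, folate carriers held 30.1% of the members' summed TPM in the male tissue, 32.3% in the female and 36.3% in the FACS cells. Biotin and pantothenate held 30.1%, 30.1% and 31.7% in the same order, and thiamine 10.4%, 10.3% and 10.4%. Ascorbate held 27.5% in the male, 25.3% in the female and 18.9% in the FACS cells. The largest difference in makeup among the choroid plexus libraries was thus the smaller share of the ascorbate carrier SLC23A2 in the FACS cells. Riboflavin held between 1.93 and 2.66%. Taken from expected counts, which do not allow for transcript length, ascorbate led instead, with 48.8% in the male, 46.0% in the female and 37.5% in the FACS cells, and folate held 18.0%, 19.7% and 23.9%. In the proximal tubules thiamine held 38.0%, ascorbate 19.7%, biotin and pantothenate 19.5%, folate 13.3% and SLC23A3 9.43%, out of 414 counts in all.

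**Figure D3:**
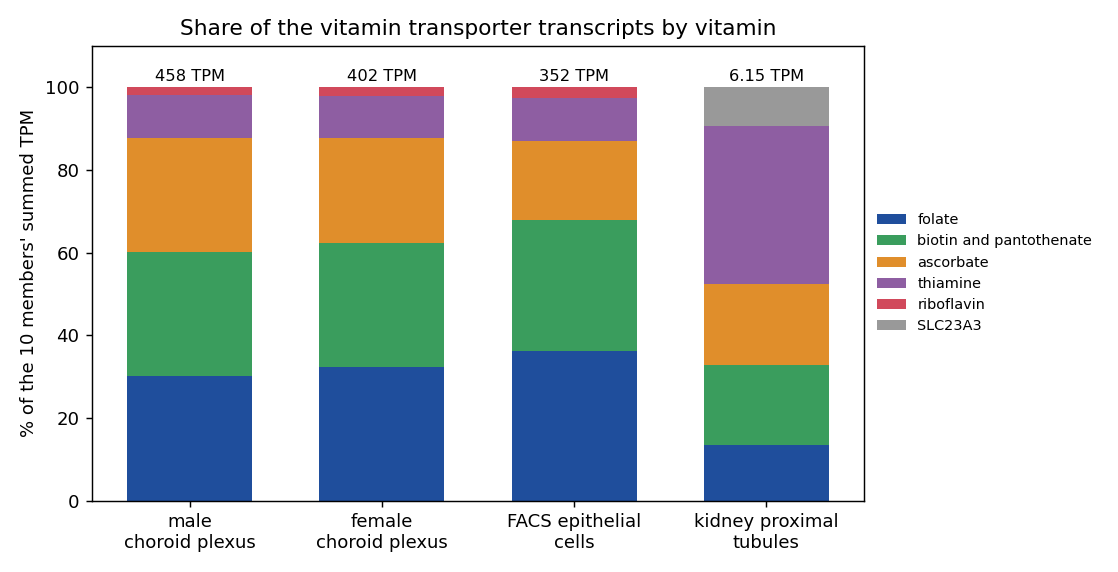
Share of the 10 members' summed TPM (y axis, percent) by the vitamin carried, for the 4 libraries (x axis), with the summed TPM above each bar. Ascorbate takes 27.5% in the male choroid plexus and 18.9% in the FACS cells, and thiamine takes 38.0% of the small sum in the proximal tubules.

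The FACS epithelial cells were set against the male choroid plexus to ask whether the whole tissue stands for its epithelium. A change was counted at 2-fold or more on the log2(TPM + 1) scale, which understates the change of low genes. No member passed this size, against 4.61% of 14024 genes that were higher and 25.5% that were lower. The 3 members below the cut-off in both libraries were not among those 14024 genes, so 7 members stood to be compared. SLC52A3 was 1.43 times its male value (1.03 to 2.002), and SLC52A2 at 0.988 times (0.871 to 1.12) and SLC46A1 at 0.921 times (0.812 to 1.04) did not differ beyond counting error. SLC19A1 was 0.927 times its male value (0.895 to 0.960), SLC5A6 0.808 times (0.784 to 0.833) and SLC19A2 0.766 times (0.725 to 0.809). SLC23A2 was 0.530 times its male value (0.517 to 0.543), the largest difference of the 7 in TPM as deposited. These intervals cover counting error only.

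The libraries differed in scale as well as in single genes, since the median log2 ratio of all genes was -0.58. The median of the 7 members was -0.11, and that of the 225 transporters and pumps at the cut-off in either library was -0.31. Relative to the median of all genes, SLC52A3 was higher by 0.91 on the log2 scale, SLC52A2 by 0.57, SLC46A1 and SLC19A1 by 0.47, SLC5A6 by 0.28 and SLC19A2 by 0.21, while SLC23A2 was at -0.32. Thus 6 of 7 members lay above the median of all genes, which by construction has as many genes above as below it. The sign of their ratio against 0 depended on the scaling. With the 10 highest genes of each library removed, the ratios of SLC19A1, SLC19A2, SLC46A1, SLC52A2 and SLC5A6 turned positive, at 0.30, 0.03, 0.28, 0.37 and 0.10, and with TMM factors on counts they were 0.54, 0.20, 0.51, 0.61 and 0.37. In both settings 6 of 7 members again lay above the median of all genes, and the share of all genes past 2-fold was 8.53% higher and 14.4% lower in the first, and 9.71% higher and 7.32% lower in the second.

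**Figure D4:**
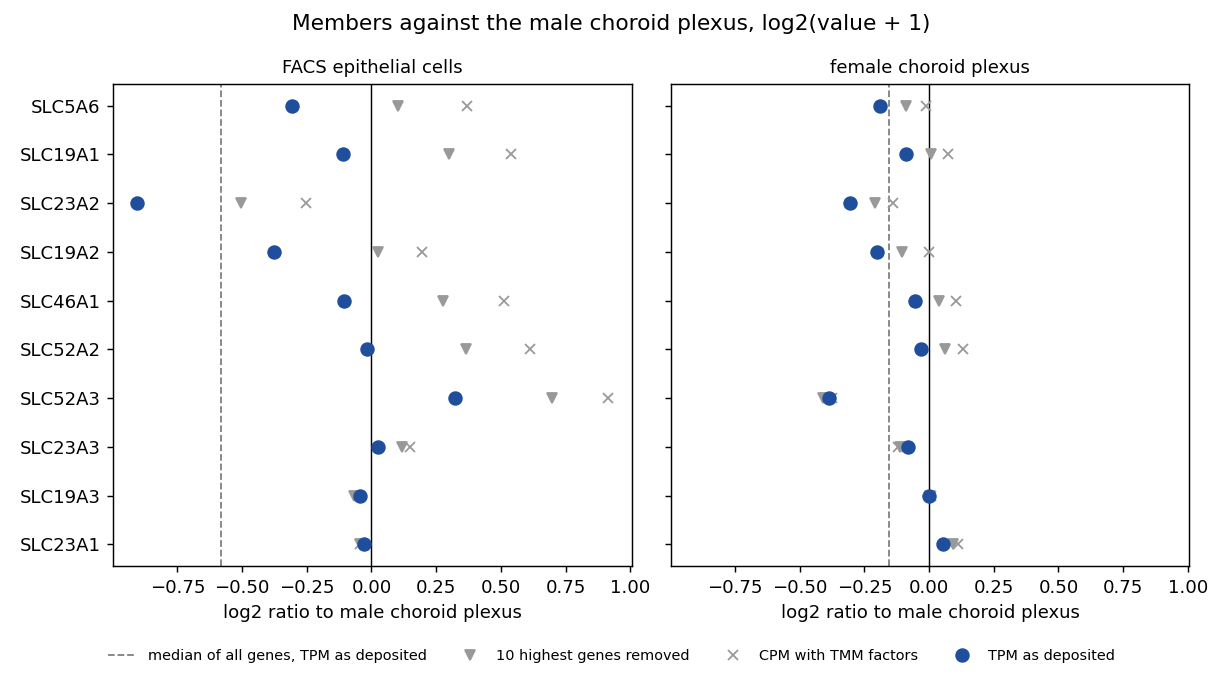
Log2 ratio of the FACS epithelial cells (left) and the female choroid plexus (right) to the male choroid plexus (x axis) for the 10 members (y axis), from TPM as deposited (blue), with the 10 highest genes removed (triangles) and from CPM, counts scaled to a fixed total, with TMM factors (crosses). The dashed line is the median of all genes for TPM as deposited, at -0.58 and -0.16; 6 of the 7 members at the cut-off lie to its right in the FACS panel, and SLC23A2 to its left.

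SLC23A2 was lower in the FACS cells under each scaling, at -0.91 as deposited, -0.50 with the 10 highest genes removed and -0.25 with TMM factors. It is the longest member, with an effective length of 6025 bases in the male library against 1216 to 2691 for the others. In this comparison the median of all genes fell with transcript length, from -0.44 in genes up to 1000 bases to -0.78 in the 670 genes of 5000 to 7000 bases. Set against that length group, a choice made after its values were seen, SLC23A2 stood at -0.13 in the FACS cells. In the female, where the same length group was at -0.27, it stood at -0.04. The part of transcript length, of the TTR share and of the immune cells in the FACS ratios was not tested.

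The female choroid plexus was set against the male to ask whether the sexes differ. No member was past 2-fold, against 0.44% of 13869 genes higher and 0.959% lower. All 7 members at the cut-off were at or below their male value in TPM, and for SLC52A2 at 0.977 times (0.859 to 1.11) and SLC46A1 at 0.960 times (0.845 to 1.09) the counting interval included 1. SLC19A1 was 0.939 times its male value (0.906 to 0.973), SLC5A6 0.877 times (0.850 to 0.904), SLC19A2 0.867 times (0.823 to 0.914), SLC23A2 0.807 times (0.790 to 0.825) and SLC52A3 0.597 times (0.385 to 0.915). The median log2 ratio of all genes was -0.16 and that of the 7 members -0.19, and 3 of the 7, SLC19A1, SLC46A1 and SLC52A2, lay above the median of all genes. The sign of the ratios of SLC19A1, SLC46A1 and SLC52A2 turned positive with the 10 highest genes removed, at 0.01, 0.04 and 0.06, and with TMM factors 4 of the 7 were above 0, by 0.07, 0.10 and 0.13 for these and by less than 0.01 for SLC19A2, while SLC5A6 was at -0.01.

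The proximal tubules were set against the male choroid plexus to ask which transporters 2 fluid-moving epithelia share. Here the 13 mitochondrially encoded genes were removed from both libraries and the rest rescaled, which gave SLC19A1 139.1 TPM in the choroid plexus and 2.94 TPM in the tubules. All 10 members were past 2-fold, 7 lower and 3 higher in the tubules, against 71% of 14227 genes lower and 12.1% higher. The count of lower members was thus the same share as among all genes and no feature of these carriers, and the choice of lists took in genes that are high in either tissue. Relative to the median of all genes, which was -2.27, 4 of 10 members lay above it, SLC19A3, SLC23A1, SLC23A3 and, at 0.94 although listed at 0 in the tubules, SLC52A3.

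Of the 7 members transcribed in the choroid plexus, SLC5A6 and SLC19A1 also reached the cut-off in the tubules, which is 2 of 7, against 40.5% of all genes and 30.1% of the transporters and pumps. SLC19A1 was 47.3 times higher in the choroid plexus (36.8 to 61.9) and SLC5A6 was 35.0 times higher (29.3 to 42.2). On the log2 scale these differences were -5.15 and -4.84, and they depended on the scaling, being -6.14 and -5.98 with mitochondrially encoded genes kept and -2.88 and -2.57 relative to the median of all genes, with the same direction. SLC23A2, SLC19A2, SLC46A1, SLC52A2 and SLC52A3 were listed at 0 in the tubules and are given no fold. In that library 54 counts, the lower quartile of its counts above 0, would be worth 0.856 TPM for SLC23A2, 2.81 TPM for SLC19A2, 2.59 TPM for SLC46A1, 1.93 TPM for SLC52A2 and 2.95 TPM for SLC52A3. SLC23A2 with 137.4 TPM and SLC19A2 with 52.2 TPM in the choroid plexus lay far above those levels, SLC46A1 with 11.3 and SLC52A2 with 8.13 TPM lay above them, and SLC52A3 with 1.52 TPM lay below.

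The 3 members higher in the tubules were SLC19A3, SLC23A1 and SLC23A3, with 8.39, 4.34 and 2.08 TPM there after the removal of mitochondrially encoded genes. All 3 were below the cut-off in the 3 choroid plexus libraries, so they entered the lists through their tubule value alone, and that they were higher in the tubules is a description fixed by that choice. Of all genes at the cut-off in the tubules, 9.14% were below it in the male choroid plexus, a share with which these members cannot be compared for that reason. The ratio of SLC19A3 to the choroid plexus was 256.3 (45.0 to 10219) and that of SLC23A1 was 198.8 (34.7 to 7943), each against 1 count in the choroid plexus, which is why the intervals are so wide. The ratio of SLC23A3 was 17.3 (6.84 to 56.3), against 5 counts, and with mitochondrially encoded genes kept it was no longer past 2-fold on the log2(TPM + 1) scale, at 0.51. The tubule library also held SLC12A1 and SLC12A3, markers of later kidney tubules. They had 17.2 and 2.12 TPM after the same removal, and 4.79 and 0.59 TPM as deposited. SLC12A3 also had 0.51 TPM as deposited in the male choroid plexus. The part of such cells in the members' values was not tested.

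**Figure D5:**
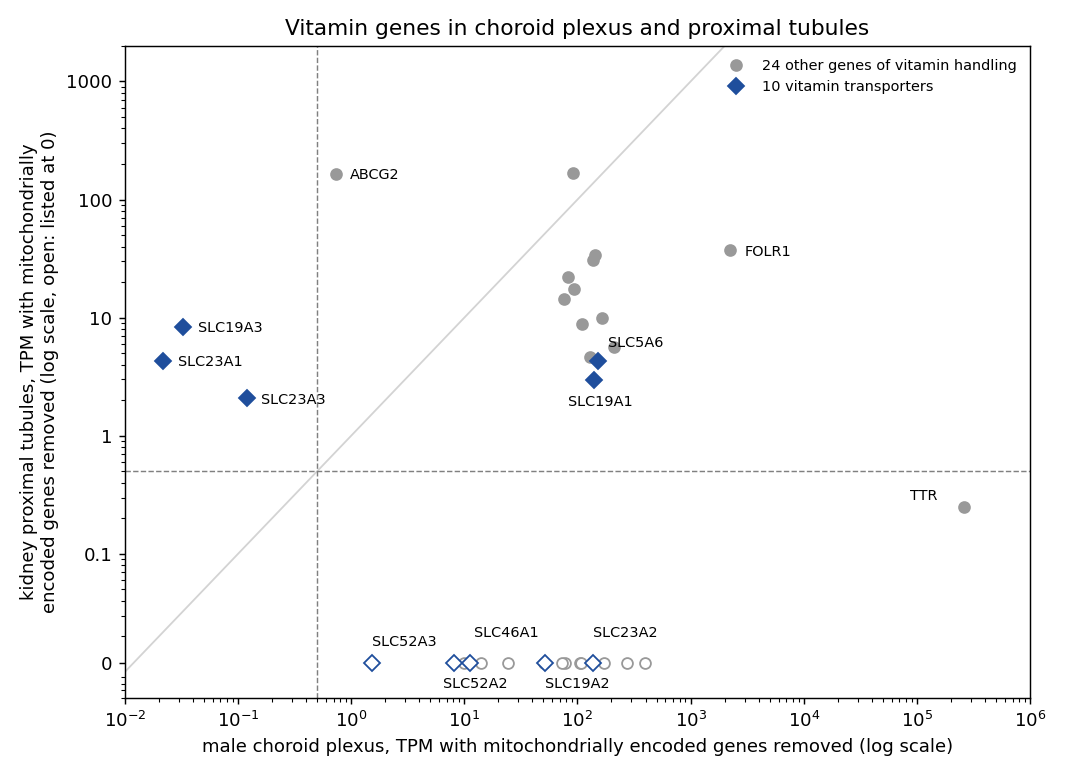
TPM with mitochondrially encoded genes removed in the male choroid plexus (x axis, log scale) and the proximal tubules (y axis, log scale, open symbols for genes listed at 0), for the 10 vitamin transporters (blue diamonds) and 24 other genes of vitamin handling (grey circles). The diagonal marks equal values and dashed lines the cut-off; SLC19A3, SLC23A1 and SLC23A3 lie at the upper left, and 5 members lie at 0 in the tubules.

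The other genes of vitamin handling were 24 receptors, binding proteins, exporters, enzymes and further carriers, among them SLC2A1 and SLC44A4. In the FACS cells 8 of the 24 were higher than in the male tissue and 16 lower in TPM, with 8 past 2-fold, all lower, against 25.5% of all genes. The 8 were the folate exporters ABCC1 and ABCC4, riboflavin kinase RFK, the thiamine-dependent enzyme subunits PDHA1, PDHB and BCKDHB and the biotin-dependent enzyme subunits PCCB and MCCC2. ABCC1 had 12.5 TPM in the FACS cells against 46.4 TPM in the male, a ratio of 0.271 (0.255 to 0.287), and PDHA1 was 84.1 and 33.0 TPM, a ratio of 0.393 (0.373 to 0.413). Relative to the median of all genes, 13 of the 24 lay above it, and ABCC1 at -1.22 was the only gene past 2-fold lower, with TTR at 1.29 and the retinal reductase DHRS3 at 1.09 past 2-fold higher, where 6.03% of all genes were past it lower and 10.9% higher. FOLR1 at 1.32 times (1.305 to 1.34) and the cobalamin carrier protein TCN2 and its receptor CD320, at 1.19 times (1.16 to 1.22) and 1.12 times (1.07 to 1.18), were higher in the FACS cells.

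In the female tissue 0 of the 24 genes were past 2-fold, with 8 higher, 15 lower and 1 equal to the male. In the proximal tubules 22 of the 24 were past 2-fold lower and 1 higher, and 11 were listed at 0, against 71% of all genes lower and 12.1% higher. All 24 reached 0.5 TPM in the male choroid plexus and were listed with earlier results known. That choice favours lower values in the tubules, so the shares of all genes are no measure for the 24. The gene past 2-fold higher was ABCG2, an exporter that carries folate and riboflavin among other compounds, with 0.731 TPM in the choroid plexus and 164.5 TPM in the tubules. FOLR1 remained measurable in the tubules at 37.2 TPM against 2246 TPM in the choroid plexus, 60.4 times lower (53.2 to 68.9). The ascorbate-linked reductase CYB561 and the glucose carrier SLC2A1, which also carries dehydroascorbate, were both listed at 0 in the tubules, against 398.2 and 73.7 TPM, as was SLC23A2.

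Among 126 listed transporters and pumps with at least 10 TPM in some library, those most like SLC19A1 over the 4 libraries were SLC7A5, ATP1B3 and MFSD5. Likeness was the distance between log2(TPM + 1) values, each gene centred on its own mean, and was 0.16, 0.19 and 0.19 for these genes, with a median of 1.56 over the 126. SLC7A5 and MFSD5 were listed at 0 in the tubules. There ATP1B3 had 7.24 TPM and SLC19A1 2.94 TPM without mitochondrially encoded genes. For a gene listed at 0 the distance depends on the 1 added to TPM, and the part of this in the likeness was not tested. The genes most like SLC23A2 were ATP11A, SLC2A12 and SLC24A4, at 0.17, 0.24 and 0.26, with a median of 2.49. All 3 were lower in the female than in the male library and lowest of these in the FACS library, as SLC23A2 was. ATP11A had 264.4, 182.8 and 125.8 TPM there without mitochondrially encoded genes. In the tubules all 3 lay at or near 0. They were picked by distance over these same values, so the shared order follows from that choice.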

How the data were processed

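RNA of 4 pools of rat tissue or cells, 1 library per group, was sequenced as paired-end reads. Per the submitters' processing notes and the methods, STAR 2.7.2a and RSEM 1.3.3 were used by the authors, with the Rnor_6.0 genome and Ensembl release 103. Per the labels and the file headers, the deposited values per gene ID are an expected count, which need not be whole, a TPM, an FPKM and an effective length in bases. The study's text does not give the strandedness of the libraries and names trimming for its species comparison only, so genes with antisense or near-identical partners are uncertain.

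The values were analysed with pandas 2.3.3, numpy 2.4.6 and scipy 1.17.1 under Python 3.11.15, plotted with matplotlib 3.10.9, and scaled with TMM in edgeR 4.0.16 (R 4.3.3) as an alternative. Gene names came from the study's lists, which name 2452 of the 32883 IDs. The members and the lists of other genes were chosen with earlier results of these data known. All members are given, with the genes of the vitamin handling and marker lists and the 3 genes most like SLC19A1 and SLC23A2. Transcribed genes are those at 0.5 TPM or more, and a change was counted at 2-fold on log2(TPM + 1) over genes at 0.5 TPM in either library. In the comparison with the tubules, both libraries were rescaled after leaving out 13 mitochondrially encoded genes. With 1 library per group no test was made and no p-value is given. Levels have 95% Poisson intervals and ratios 95% exact binomial intervals conditional on both counts, which cover counting error only. The ratio intervals were tried on Poisson counts simulated around those of the male choroid plexus, its lowest counts left out. Such counts follow the model behind the intervals. The simulation therefore does not cover the count spread of the tubule library or ratios that rest on a few counts. Depth is given in the report as summed counts per library. Promoter sequences are from RefSeq (GRCr8), and no coordinates of Rnor_6.0 are used. The alternatives were TMM, removal of the 10 highest genes, a pseudocount of 0.1 or 0.5, centring on the median of all genes, mitochondrially encoded genes removed or kept, 1.5-fold, at least 10 expected counts in both libraries, no cut-off or one of 0.1, 1 or 5 TPM, 10 expected counts as cut-off, and FPKM, expected counts or expected counts per base in place of TPM. The species comparison of the study was not analysed here, and 1 gene of the vitamin handling list is not reported here.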

Additional observations from a re-analysis of the deposited data

How the results depend on the processing

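No paired analysis was possible because each group has 1 library, and no replicate could be left out. Against the FACS cells, 0 members past 2-fold became 1 at 1.5-fold, SLC23A2, and stayed 0 under the other settings tried, as it did under all of them in the female. Against the proximal tubules, 10 members past 2-fold became 2 when at least 10 expected counts were asked of both libraries, since the setting leaves out genes at 0, 8 when centred on the median of all genes, 9 with mitochondrially encoded genes kept, SLC23A3 being lost, and 9 when tubule values were raised to 54 counts, a setting chosen after seeing the data. There SLC52A3, past 2-fold as reported, changed sign, from -1.33 to 0.94, when centred on the median of all genes. In TPM as deposited, the members transcribed in the proximal tubules were 5 at 0.5 TPM, 3 at 1 TPM and 0 at 5 TPM, or 5 by expected counts. With mitochondrially encoded genes removed, these 5 had from 2.08 TPM (SLC23A3) to 8.39 TPM (SLC19A3), so the loss at 1 TPM depends on the scale. Of the ratios of members recomputed, 104 moved by less than their counting interval, 78 were counted as moved and 1, that of SLC52A3 in the tubules, as reversed. A sign changed in 17 recomputed ratios of the FACS cells and 11 of the female, all under removal of the 10 highest genes, TMM or centring and none of them past 2-fold as reported, and in 1 of the tubules. Of the shares by vitamin, 17 of 24 moved by more than counting error when taken from expected counts in place of TPM. The order of the members was the same in all 12 recomputations from FPKM, from expected counts per base or without mitochondrially encoded genes. With 1 library per group, differences between animals, pools, sorting and library preparation cannot be told apart from those between groups.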
